A study of Mus musculus with 6 samples.

Results

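The chemokine receptors Ccr8, Ccr4, Ccr2, Ccr9, Ccr10, Cxcr3 and Cxcr6 were followed in regulatory T cells (Tregs), the CD4 T cells that express the transcription factor Foxp3 and restrain other immune cells. They are 7 of the 55840 genes in the deposited table and were taken by gene name. All 7 were among the 14919 genes with enough counts to be tested. RNA sequencing compared 3 libraries of Tregs labelled WT with 3 labelled Exon2KO, which the series title writes as Foxp3∆2 and which are taken as lacking exon 2 of Foxp3. Both groups come from spleen and lymph nodes (LNs), but no label says which library held which tissue, and strain, sex, age, cell sort and the way the allele was made are not given in the labels. Replicates are titled as biological, without a statement that each came from its own animal. The column names carry a number, 2, 6 or 20, once in each genotype, and libraries are named here by genotype and number, such as WT 20.

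Chemokine receptors are G protein-coupled receptors on the cell surface. Each binds certain chemokines, small secreted proteins that attract cells, and signals through an inhibitory G protein to direct migration and adhesion. On T cells, Ccr7 marks cells that recirculate through lymph nodes. The receptors described here are known instead from T cells that enter tissue: Ccr8, Ccr4 and Ccr10 from skin and other barrier surfaces, Ccr9 from the small intestine, and Ccr2, Cxcr3 and Cxcr6 from inflamed sites. In bulk RNA, a smaller share of cells that carry a receptor and less receptor RNA in each cell cannot be told apart.

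Libraries held 17998216 to 21003496 counts, so that 3 counts, taken as the smallest level shown, lay between 0.141 and 0.169 CPM (counts scaled to a common library size, with TMM factors). No member fell to that level: the fewest counts of any member in any library were 16, for Ccr10 in Exon2KO 2. The targeted gene, Foxp3, was at 782, 601 and 749 CPM in WT 2, 6 and 20 and at 825, 683 and 923 CPM in the matching Exon2KO libraries, and was not called (log2 fold change 0.19, edgeR adjusted p = 0.693); a count per gene does not show whether exon 2 is present, so it does not check the labels. Markers of T cells and Tregs (Cd3d, Cd3e, Cd3g, Cd4, Trac, Foxp3, Il2ra, Ctla4 and Ikzf2) summed to 4370 to 4720 CPM in WT and 4080 to 4410 CPM in Exon2KO. Of these 9 genes, Il2ra, Ctla4 and Ikzf2 were called lower in Exon2KO and none was called higher (edgeR), where 1.58% of all tested genes were called lower. Markers of B cells, plasma cells, monocytes and macrophages, plasmacytoid dendritic cells, other dendritic cells, and CD8 and NK cells were also present, and none of these lists of other cells summed to more than 51.7 CPM in any library. The lists hold no immunoglobulin heavy-chain or light-chain gene, so the sums leave that RNA out. Ighm, an immunoglobulin heavy-chain gene, was called lower in Exon2KO (log2 fold change -1.41, SE 0.14, edgeR adjusted p = 0.00253). It is named after its values were seen. Summed levels were lower in every Exon2KO library than in any WT library for the B cell markers (31 to 31.9 CPM in WT, 24.8 to 27.5 CPM in Exon2KO), the dendritic cell markers (6.79 to 7.61 and 5.11 to 5.17 CPM) and the plasmacytoid dendritic cell markers without Ccr9 (4.45 to 5.48 and 3.37 to 3.94 CPM). Sums of the plasma cell, the monocyte and macrophage, and the CD8 and NK cell markers overlapped between the genotypes. Between same-numbered libraries, the first and second of these were lower in Exon2KO for each number. For 2, 6 and 20, plasma cell sums were 33.6, 37 and 19.9 CPM in WT and 19, 21.5 and 11.4 CPM in Exon2KO. Monocyte and macrophage sums were 20.9, 26.1 and 51.7 CPM, and 17.4, 18.6 and 46.7 CPM. The CD8 and NK cell sum was higher in Exon2KO for numbers 2 and 6 and lower for 20. Of the 25 tested markers of other cells none was called in edgeR without the block, 4 had an unadjusted p under 0.05, DESeq2 called 2 and limma-voom 1. The shares of all tested genes were 2.33%, 12.1%, 4.47% and 2.2% by these rules. With the block Cd79b, Zbtb46, Jchain, Derl3 and Lyz2 were called lower, 5 of 25 against 5.79% of all tested genes. Their part in the receptor values was not tested. A principal component analysis set both libraries numbered 20 apart from the others on its first component (33.2% of the variance; scores of -36.9 for WT 20 and -33.5 for Exon2KO 20).

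Ccr8 was the member called in the comparison of Exon2KO with WT, and it was lower by 3.29-fold. Ccr10 and Ccr4 were lower in every Exon2KO library than in any WT library, by 3.90-fold and 1.88-fold, but missed the threshold (edgeR quasi-likelihood test, two-sided, adjusted p = 0.0565 and 0.127). Ccr2, Cxcr3, Ccr9 and Cxcr6 overlapped between the genotypes. The share of members called lower was thus 1 of 7, where 1.58% of all tested genes were called lower and 2.33% in either direction. Groups without overlap, lower in Exon2KO, were found for 3 of 7 members and for 9.29% of all tested genes. With the column number as a replicate block, 2 of 7 members were called lower, Ccr8 and Ccr10, against 5.79% of all genes. The median log2 fold change of the 7 was -0.58, beside 0.0084 over all tested genes. The members were picked with earlier results of these data known, so these counts are descriptions.

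**Figure D1:**
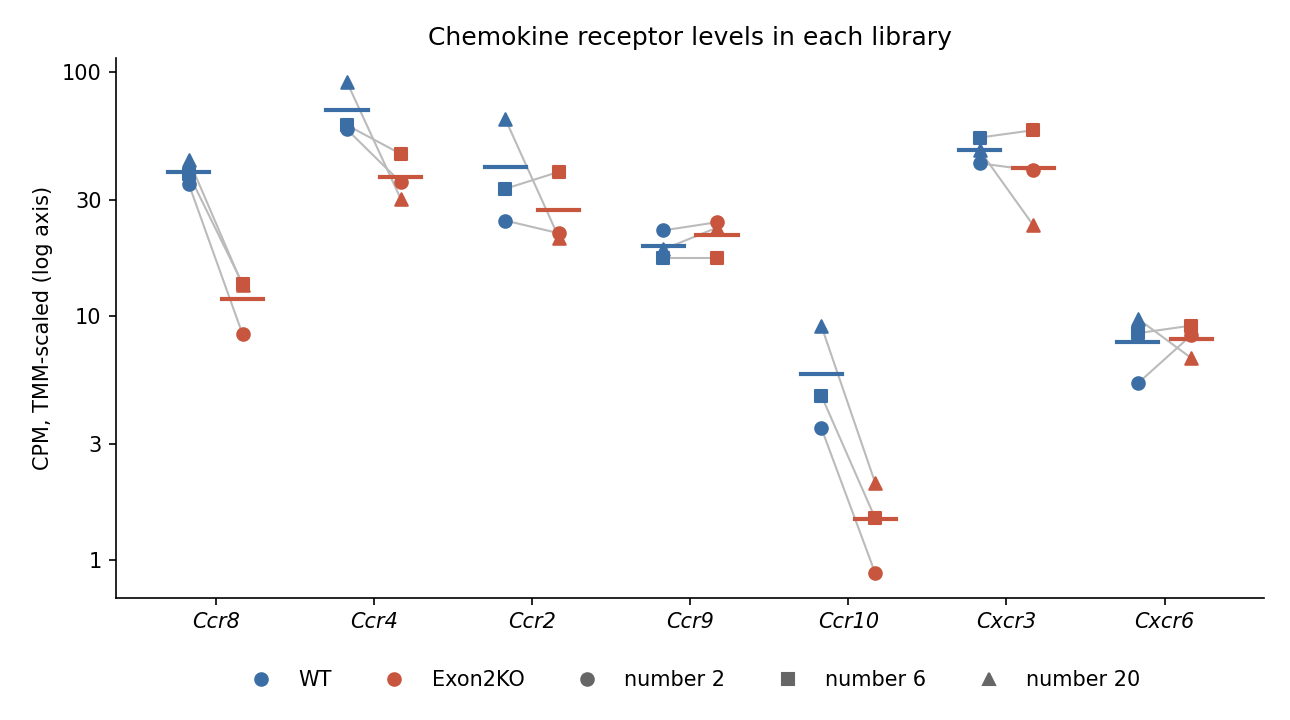
Level of each receptor in every library, as TMM-scaled CPM on a log axis, with WT in blue and Exon2KO in red. Symbols give the column number, grey lines join same-numbered libraries and bars are means of 3 libraries. For Ccr8, Ccr4 and Ccr10 all red points lie below all blue points.

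Ccr8 is the receptor of Ccl1 and, in the mouse, of Ccl8, and is known as a marker of Tregs in skin and tumours. The gene (ENSMUSG00000042262) lies on chromosome 9 from 120092114 to 120094906 on the plus strand (GRCm38) and has 1 annotated transcript of 2 exons. Its counts were 649, 694 and 933 in WT 2, 6 and 20, against 152, 265 and 239 in the same-numbered Exon2KO libraries. In CPM these were 34.8, 38.2 and 43.7 in WT and 8.44, 13.6 and 13.4 in Exon2KO. The WT libraries sat close together, and the highest Exon2KO library was below the lowest WT library by a wide margin. Group levels were 38.9 ± 4.50 CPM in WT and 11.8 ± 2.93 CPM in Exon2KO (SD, n = 3 each). The log2 fold change was -1.72 (SE 0.19, 95% interval -2.14 to -1.30, edgeR adjusted p = 0.00255), a fall larger than the spread of the replicates. By p-value Ccr8 ranked 35 among the 14919 tested genes, and 0.664% of them had a lower log2 fold change. The call held in all 6 fits that left out 1 library (highest edgeR adjusted p = 0.0196) and without both libraries numbered 20 (-1.73, adjusted p = 0.00311).

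Ccr4 binds Ccl17 and Ccl22, chemokines made by dendritic cells, and is carried by skin-homing T cells and by effector Tregs. The gene (ENSMUSG00000047898) lies on chromosome 9 from 114490316 to 114504916 on the minus strand. Counts of 1088, 1103 and 1945 in WT 2, 6 and 20 stood against 638, 904 and 540 in the same-numbered Exon2KO libraries. Of the 7 receptors it had the highest mean CPM in WT, at 70.0 ± 18.3 CPM, against 37.4 ± 8.16 CPM in Exon2KO (SD, n = 3 each). The single levels were 58.3, 60.7 and 91.1 CPM in WT and 35.4, 46.3 and 30.3 CPM in Exon2KO, so WT 20 stood highest and Exon2KO 20 lowest. The log2 fold change was -0.91 (SE 0.22, 95% interval -1.44 to -0.37, edgeR adjusted p = 0.127), and it was not called. With the replicate block it was -0.89 (SE 0.33, edgeR adjusted p = 0.324). DESeq2 on the same counts called it (-0.91, adjusted p = 0.000311), together with Ccr8 and Ccr10, 3 of 7 members called lower where DESeq2 called 2.96% of tested genes lower. Without both libraries numbered 20 the edgeR value was smaller, -0.54 (adjusted p = 0.0694).

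Ccr10 is the receptor of Ccl27 and Ccl28, made by skin and mucosal epithelium, and is also carried by plasma cells that secrete IgA. The gene (ENSMUSG00000044052) lies on chromosome 11 from 101172997 to 101175443 on the minus strand. Few reads fell on it: 65, 86 and 195 counts in WT 2, 6 and 20, against 16, 29 and 37 in the same-numbered Exon2KO libraries. These correspond to 3.48, 4.73 and 9.13 CPM in WT and 0.888, 1.49 and 2.08 CPM in Exon2KO. In each genotype the library numbered 20 was highest and the one numbered 2 lowest. The group levels were 5.78 ± 2.97 and 1.48 ± 0.595 CPM (SD, n = 3 each). This gave a log2 fold change of -1.96 (SE 0.43, 95% interval -2.94 to -0.98, edgeR adjusted p = 0.0565). With the replicate block the value was -1.93 (SE 0.24), and Ccr10 was called lower at an edgeR adjusted p of 8.77e-05. It was also called without both libraries numbered 20 (-1.78, edgeR adjusted p = 0.0401).

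Other values moved with Ccr10. Cntnap1, which encodes a contactin-associated protein of myelinated axons, overlaps Ccr10 on the opposite strand, and the counting is not stated to use strand, so reads of the pair are uncertain. Cntnap1 had 631 counts over all libraries beside 428 for Ccr10, and its log2 fold change was -1.41 (edgeR adjusted p = 0.109; with the replicate block -1.43, adjusted p = 0.000185). The 5 plasma cell markers summed to 19.9 to 37.0 CPM in WT and 11.4 to 21.5 CPM in Exon2KO, mostly from Jchain. None of the 3 that could be tested was called in edgeR without the block, and with it Jchain and Derl3 were called lower. DESeq2 and limma-voom each called 1 of the 3. The plasma cell sum and Jchain were lowest in the library numbered 20 of each genotype, whereas Derl3, like Ccr10, was highest there. Derl3 stood at 4.99, 4.35 and 5.72 CPM in WT 2, 6 and 20 and at 1.39, 2.1 and 2.64 CPM in the same-numbered Exon2KO libraries. Its log2 fold change was -1.29 (edgeR adjusted p = 0.055). Sdc1, also tested, was at 0.21 and overlapped between the genotypes. Their part in the Ccr10 values was not tested.

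Cxcr3 binds Cxcl9 and Cxcl10, chemokines induced by interferon, and is known from type 1 helper T cells and the Tregs that accompany them. The gene (ENSMUSG00000050232) lies on the X chromosome from 101731535 to 101734269 on the minus strand. Counts in WT 2, 6 and 20 were 791, 981 and 1025, against 714, 1130 and 420 in the same-numbered Exon2KO libraries. The levels were 42.4, 54.0 and 48.0 CPM in WT and 39.6, 57.9 and 23.6 CPM in Exon2KO. Exon2KO 20 was well below all other libraries, while Exon2KO 6 was the highest of the 6. The log2 fold change was -0.25 (SE 0.32, 95% interval -1.04 to 0.54, edgeR adjusted p = 0.874) and the groups overlapped. Without Exon2KO 20 it was 0.015, so the negative value rested on that library.

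Ccr2 is the receptor of Ccl2, Ccl7 and Ccl12 and brings monocytes and activated T cells into inflamed tissue. The gene (ENSMUSG00000049103) lies on chromosome 9 from 124101950 to 124113557 on the plus strand. Counts were 461, 605 and 1379 in WT 2, 6 and 20, against 394, 763 and 373 in the same-numbered Exon2KO libraries. In CPM the WT libraries stood at 24.7, 33.3 and 64.6 and the Exon2KO libraries at 21.9, 39.1 and 21. WT 20 was far above the other 5 libraries, which overlapped between the genotypes. The log2 fold change was -0.58 (SE 0.45, 95% interval -1.72 to 0.56, edgeR adjusted p = 0.754). It was -0.086 without WT 20 and 0.073 without both libraries numbered 20. Chemokine receptors form a gene family, and how reads that fit more than 1 gene were counted is not given in the sources used here, so the counts of Ccr2 are uncertain to that extent. Monocyte and macrophage markers, whose cells carry Ccr2, summed to 51.7 CPM in WT 20 and 46.7 CPM in Exon2KO 20 and to 17.4 to 26.1 CPM in the other libraries. They were thus high in both libraries numbered 20, whereas Ccr2 was high in WT 20 and lowest in Exon2KO 20. Their part in the Ccr2 values was not tested.

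Cxcr6, the receptor of Cxcl16 that is known from tissue-resident T cells, did not pass the test. The gene (ENSMUSG00000048521) lies on chromosome 9 from 123806475 to 123811760 on the plus strand, inside Fyco1, which is on the opposite strand and had a log2 fold change of 0.070 (edgeR adjusted p = 0.933). Its levels were 5.31, 8.53 and 9.79 CPM in WT 2, 6 and 20 and 8.38, 9.17 and 6.74 CPM in Exon2KO 2, 6 and 20. All 3 Exon2KO libraries lay within the range of the WT libraries. The log2 fold change was 0.039 (SE 0.24, 95% interval -0.51 to 0.58, edgeR adjusted p = 0.979). Fyco1 had 8221 counts over all libraries beside 913 for Cxcr6, so without stated use of strand the reads of Cxcr6 are uncertain.

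Ccr9 binds Ccl25, which is made in the thymus and small intestine, and directs T cells to the gut. The gene (ENSMUSG00000029530) lies on chromosome 9 from 123678439 to 123784330 on the plus strand. Its levels were 22.5, 17.3 and 18.8 CPM in WT 2, 6 and 20 and 24.3, 17.3 and 23.1 CPM in Exon2KO 2, 6 and 20. Libraries numbered 6 had the same level in both genotypes and the lowest of each. The log2 fold change was 0.14 (SE 0.16, 95% interval -0.21 to 0.50, edgeR adjusted p = 0.842), so a fall as large as that of Ccr8 lay outside its interval. The same holds for Cxcr6 and Cxcr3, and the value of Ccr8 was at the edge of the Ccr2 interval in the fit without the block. With the block the Ccr2 interval ran from -2.63 to 1.59 and held the Ccr8 value of -1.73. The Ccr9 gene model spans 105892 bases and overlaps 6 other genes. Among these Gm10052, a processed pseudogene, had 7139 counts and Lztfl1, a gene of ciliary trafficking, had 2155 counts, beside 2322 for Ccr9. They lie on the opposite strand, with log2 fold changes of -0.24 and -0.15 that were not called, and reads in the shared stretches are uncertain. With the replicate block Gm10052 was called lower (-0.25, edgeR adjusted p = 0.031). Plasmacytoid dendritic cells also carry Ccr9; their other 5 markers summed to 4.45 to 5.48 CPM in WT and 3.37 to 3.94 CPM in Exon2KO. Of these, Klk1 and Cox6a2 stayed under 3 counts in every library.

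**Figure D2:**
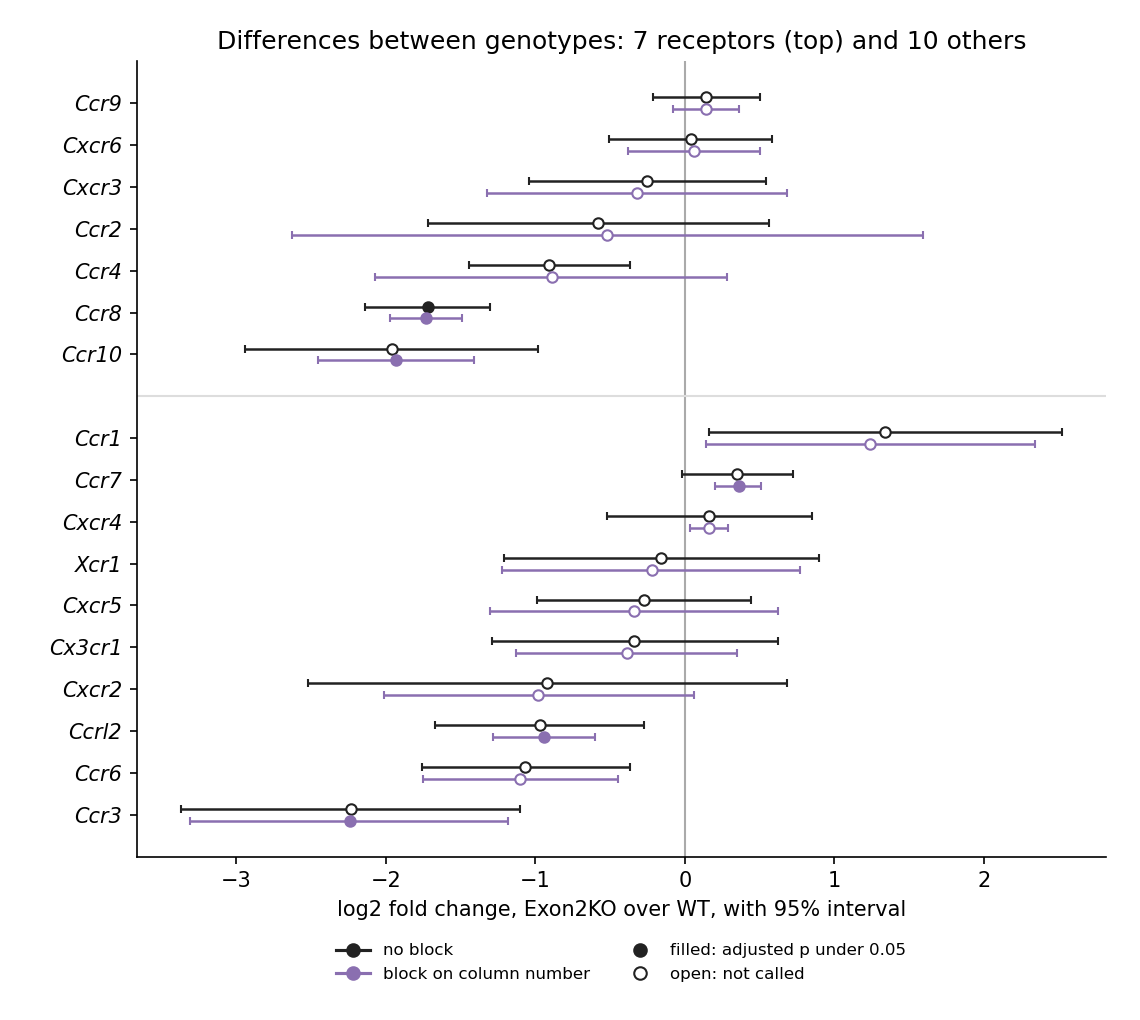
Log2 fold change of Exon2KO over WT with its 95% interval, for the 7 receptors (top) and the 10 other chemokine receptors that could be tested (bottom). Black shows the fit without a block and violet the fit with the column number as a block. Filled points passed an adjusted p of 0.05. Ccr8 was filled in both fits, and Ccr10, Ccr3, Ccrl2 and Ccr7 with the block.

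Same-numbered libraries were also compared directly. The Exon2KO level of Ccr8 was 0.242, 0.356 and 0.307 of the WT level for numbers 2, 6 and 20. For Ccr10 these ratios were 0.255, 0.314 and 0.228, close to those of Ccr8 in each pair. For Ccr4 they were 0.607, 0.763 and 0.333, with the lowest ratio between the libraries numbered 20. These 3 receptors were lower in Exon2KO in every pair, as were 20.9% of all tested genes. The ratios of Ccr2 (0.885, 1.17 and 0.324) and Cxcr3 (0.934, 1.07 and 0.491) were near 1 for numbers 2 and 6 and low for number 20. The ratios of Cxcr6 were 1.58, 1.08 and 0.689, and those of Ccr9 were 1.08, 1.00 and 1.23. The lowest of the 3 ratios was that of number 20 for 5 of 7 members (Ccr4, Ccr2, Ccr10, Cxcr3 and Cxcr6) and for 34.1% of all tested genes. WT 20 had the highest level of all 6 libraries for 5 of 7 members, all but Ccr9 and Cxcr3, and for 18.7% of all tested genes. With 1 pair per number, a difference between numbers in the genotype effect could not be tested.

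**Figure D3:**
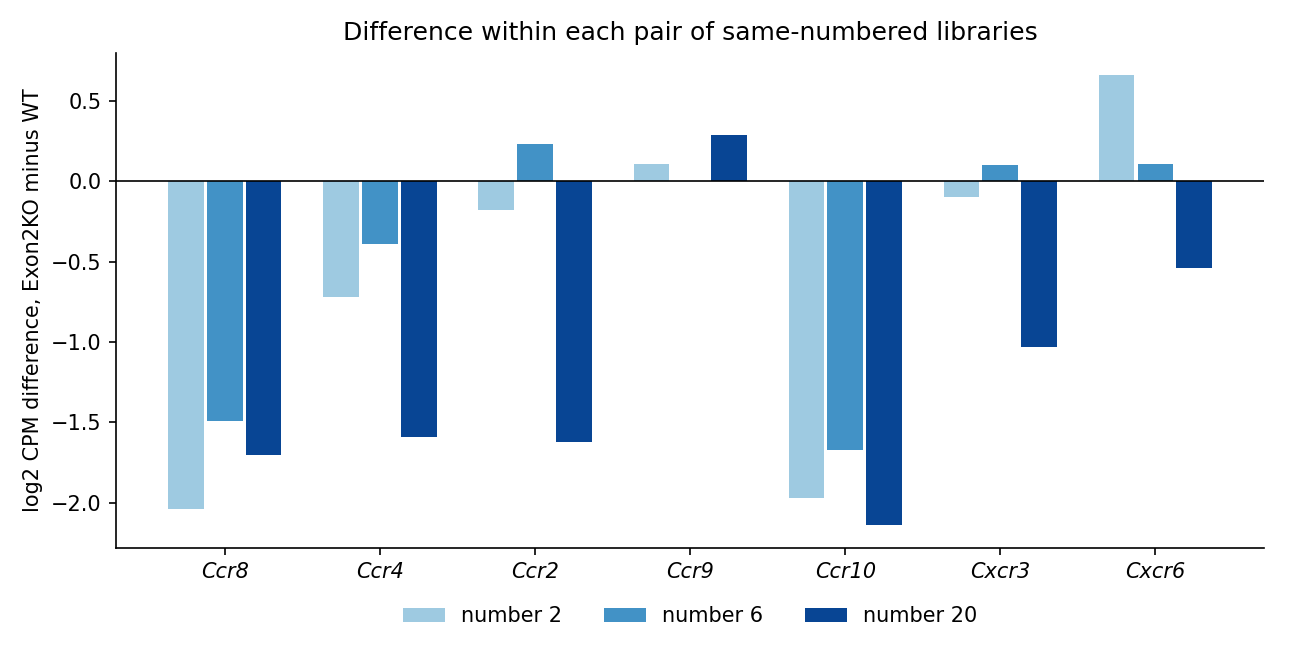
Difference in log2 CPM, Exon2KO minus WT, within each pair of libraries that share a column number (2, 6 or 20). Bars of Ccr8 and Ccr10 are of similar depth in all 3 pairs (-2.04 to -1.49 and -2.14 to -1.67), while Ccr4, Ccr2, Cxcr3 and Cxcr6 have their lowest bar at number 20.

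To compare levels between receptors, CPM were divided by the length of the gene model in kilobases. In WT, Ccr8 led with 33.1 ± 3.83 CPM per kilobase, followed by Cxcr3 (27.8 ± 3.34) and Ccr4 (22.6 ± 5.91; SD, n = 3 each). The ranges of these neighbours overlapped. Lower levels were those of Ccr2 (6.05 ± 3.11), Cxcr6 (4.08 ± 1.2), Ccr10 (3.35 ± 1.72) and Ccr9 (1.9 ± 0.26 CPM per kilobase), again with overlap between each and the next. Ccr4 and Ccr2 were the pair of neighbours in WT whose ranges stood apart. In Exon2KO the order began with Cxcr3 (23.3 ± 9.91), Ccr4 (12.1 ± 2.64) and Ccr8 (10.1 ± 2.49 CPM per kilobase), with overlapping neighbours. Then came Cxcr6 (4.19 ± 0.642), Ccr2 (4.04 ± 1.51), Ccr9 (2.1 ± 0.364) and Ccr10 (0.86 ± 0.345 CPM per kilobase); among these the ranges of Cxcr6 and Ccr2 overlapped and the other neighbours stood apart. Of the length-scaled level summed over the 7 receptors, Ccr8 took 32% to 35.4% in WT libraries and 13.8% to 25.4% in Exon2KO libraries. Cxcr3 took 23.9% to 32.1% and 30.4% to 45.8%, with Exon2KO 20 inside the WT range. The sum itself was 98.9 ± 16.4 CPM per kilobase in WT and 56.6 ± 14.6 in Exon2KO. The length-scaled level of Ccr9 rests on a model length of 10260 bases, whereas its longest coding transcript in GENCODE release M21 has 5197 bases. That of Ccr2 rests on 6760 bases, whereas its coding transcripts there have 2265 to 5728 bases. The rank of Ccr2 and its gap from Ccr4 in WT can thus depend on the length used.

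**Figure D4:**
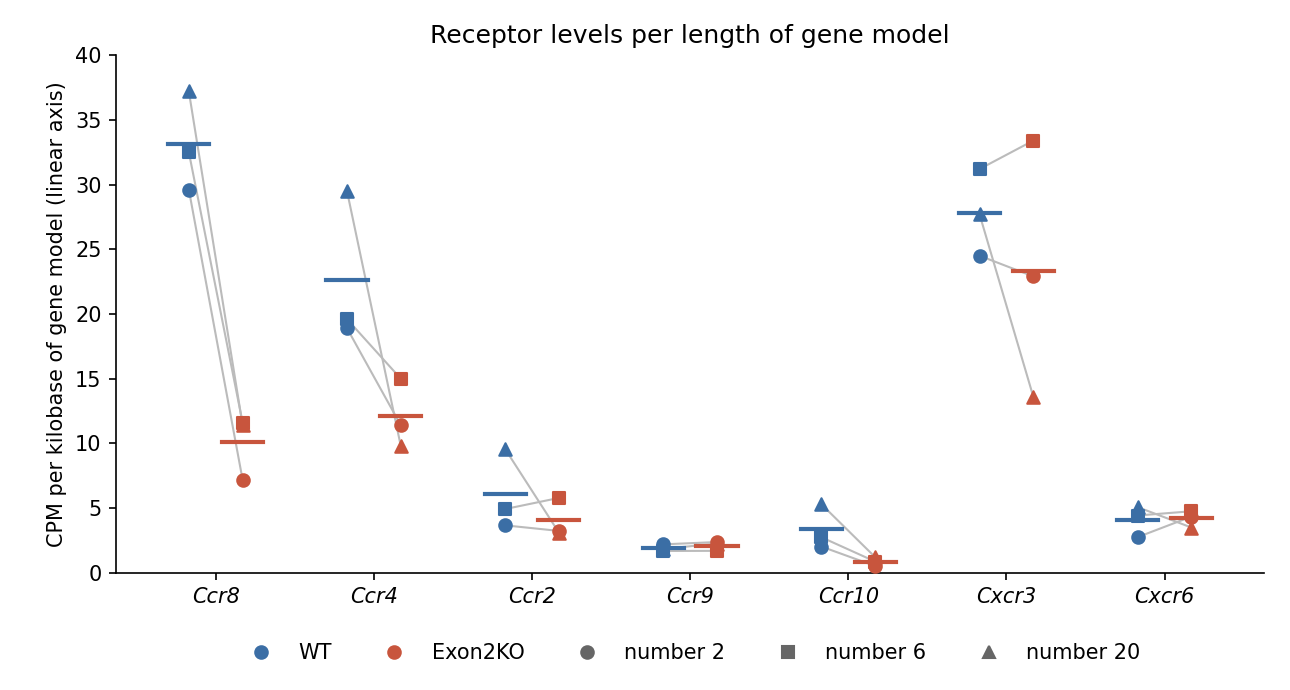
CPM per kilobase of gene model for each receptor on a linear axis, with WT in blue, Exon2KO in red, symbols by column number, grey lines between same-numbered libraries and bars for the mean of 3 libraries. Ccr8 is the highest receptor on average in WT (33.1 CPM per kilobase) and lies below Cxcr3 and Ccr4 in Exon2KO (10.1 CPM per kilobase).

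Start-site windows were read from RefSeq (GRCm38.p6) for 6 of the 7 receptors, all but Ccr10. Windows of Ccr8 and Ccr4, the entries whose groups did not overlap, are shown with that of Cxcr3, an abundant receptor whose groups overlapped. Each runs 5′ to 3′ on the gene's strand from 250 bases before the RefSeq start to 50 bases from it, and capitals mark motif matches. The Ccr8 window is chr9:120091883-120092182 (plus strand), that of Ccr4 chr9:114496495-114496794 (minus) and that of Cxcr3 chrX:101734098-101734397 (minus).
Ccr8: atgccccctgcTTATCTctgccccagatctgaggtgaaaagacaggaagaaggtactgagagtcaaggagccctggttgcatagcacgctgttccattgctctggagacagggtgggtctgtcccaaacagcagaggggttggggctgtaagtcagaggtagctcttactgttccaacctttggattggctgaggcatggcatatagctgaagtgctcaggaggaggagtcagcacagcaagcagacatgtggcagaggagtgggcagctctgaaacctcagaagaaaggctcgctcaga
Ccr4: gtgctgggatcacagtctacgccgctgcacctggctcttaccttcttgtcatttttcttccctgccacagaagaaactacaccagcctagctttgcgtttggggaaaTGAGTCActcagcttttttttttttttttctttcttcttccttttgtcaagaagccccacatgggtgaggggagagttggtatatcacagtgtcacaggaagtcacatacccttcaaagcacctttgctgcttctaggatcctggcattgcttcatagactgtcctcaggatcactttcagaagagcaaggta
Cxcr3: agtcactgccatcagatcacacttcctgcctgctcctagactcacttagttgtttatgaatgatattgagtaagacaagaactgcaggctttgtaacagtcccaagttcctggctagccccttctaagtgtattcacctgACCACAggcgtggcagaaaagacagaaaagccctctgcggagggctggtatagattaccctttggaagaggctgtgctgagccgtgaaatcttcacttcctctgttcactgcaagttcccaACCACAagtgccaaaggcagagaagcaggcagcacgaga

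The search covered 6 motifs on both strands: the AP-1 motif was searched as TGANTCA, that of GATA factors as AGATAA, that of Runx factors as TGTGGT, that of forkhead factors as GTAAACA, that of Stat factors as TTCNNNGAA and that of T-box factors as GGTGTGA. Ccr8 held a GATA match at base 12 of the window and Ccr4 an AP-1 match at base 108. The Cxcr3 window held RUNX matches at bases 141 and 262. Of the windows not shown, Ccr2 held a GATA match and Cxcr6 a RUNX match, and that of Ccr9 held none of these letters. Across all 32851 RefSeq windows, 7.81% held the AP-1, 11.2% the GATA and 16.8% the RUNX motif. The RefSeq start lies 8372 bases inside the deposited gene model for Ccr4 and 88772 bases inside it for Ccr9, so these windows do not cover the 5′ end of those models. For the other 4 it lies 2 to 233 bases inside.

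Ccr8, Ccr4, Ccr2, Ccr9 and Cxcr6 lie on chromosome 9. Among the nearest tested genes beside Ccr8, Ccr4 and Ccr2, Gm47050 was called in edgeR without the block. It is a transcript of unsettled type that begins 757 bases past the end of Ccr8 on the same strand. Its counts were 98, 159 and 205 in WT 2, 6 and 20, against 38, 30 and 52 in the same-numbered Exon2KO libraries. Its log2 fold change was -1.85 (SE 0.32), lower in Exon2KO with an edgeR adjusted p of 0.0179. Other tested neighbours of Ccr8 were Slc25a38, a mitochondrial glycine carrier, at -0.053, and Cx3cr1, the fractalkine receptor, at -0.34. A further one, the long noncoding RNA 1700019L13Rik, was at 0.27. None of these was called in edgeR, with or without the block. Next to Ccr4, Glb1 (lysosomal beta-galactosidase) and Cnot10 (a subunit of the CCR4-NOT complex, which is unrelated to this receptor) were at -0.064 and 0.012. Next to Ccr2, in the receptor cluster, Ccr3 was at -2.23 (SE 0.50, edgeR adjusted p = 0.0616) and Ccr1 at 1.34 (SE 0.53, edgeR adjusted p = 0.32). Neither was called in edgeR without the block, whereas DESeq2 called Ccr3 lower. Next to Ccr10 on chromosome 11, Plekhh3 and Tubg2 were at -0.97 and -0.76, and Ezh1 and Wnk4 at -0.022 and 0.032. None of these neighbours of Ccr10 was called in edgeR, with or without the block. All these neighbours were named after their values were seen.

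Of 17 other chemokine receptors listed, 10 could be tested, and none was called in edgeR without the block, where 2.33% of all tested genes were called. At an unadjusted p under 0.05 there were 4 in that fit, against 12.1% of all tested genes. DESeq2 called 3 lower (Ccr3, Ccrl2 and Ccr6), against 2.96% of all tested genes, and limma-voom called 0, against 2.2%. Their median log2 fold change was -0.31. With the block 1 was called higher and 2 lower, against 3.93% and 5.79% of all tested genes. Ccr7, the lymph node receptor, was at 197 ± 39.6 CPM in WT and 250 ± 32.9 CPM in Exon2KO, and was called higher with the block (log2 fold change 0.36, SE 0.072, edgeR adjusted p = 0.0048). Ccr3, the eotaxin receptor, went from 2.90, 3.69 and 6.04 CPM in WT to 0.777, 1.54 and 0.337 CPM in Exon2KO, and fell by 2.24 with the block (SE 0.47, edgeR adjusted p = 0.0171). Ccrl2, a non-signalling receptor that presents chemerin, fell by 0.94 with the block (SE 0.16, edgeR adjusted p = 0.00123). Ccr6, the receptor of Ccl20, had no overlap between groups either (35.9 ± 6.93 and 17.1 ± 6.22 CPM) but was called in edgeR neither with nor without the block, and it is named after its values were seen.

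Ligands of the members were scarce. Of 14 listed, 6 could be tested and none was called in edgeR without the block, where 2.33% of all tested genes were called; 0 had an unadjusted p under 0.05, and DESeq2 and limma-voom called 0, against 12.1%, 4.47% and 2.2% of all tested genes. Cxcl10, a ligand of Cxcr3, was the most abundant, at 12 ± 7 CPM in WT and 7.36 ± 2.14 CPM in Exon2KO, and was called lower with the block (-0.62, SE 0.18, edgeR adjusted p = 0.0456), the 1 ligand called there, against 5.79% of all tested genes called lower. Ccl1, the ligand of Ccr8, had 7, 13 and 6 counts in WT 2, 6 and 20, against 4, 20 and 0 in the same-numbered Exon2KO libraries, too few to be tested; it is named after its counts were seen.

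Of 39 genes in the table that carry chemokine signals inside the cell, 36 were tested, with a median log2 fold change of 0.038. Of these, 2 were called higher and 2 lower, where 0.757% of all tested genes were called higher and 1.58% lower. An unadjusted p under 0.05 was found for 10 of 36, DESeq2 called 5 and limma-voom 4, against 12.1%, 4.47% and 2.2% of all tested genes. The G protein subunit gene Gnai2, to which these receptors couple, was at means of 717 and 735 CPM in WT and Exon2KO, with a log2 fold change of 0.036 (edgeR adjusted p = 0.933). Plcb3, a phospholipase C gene, fell by 0.57 (SE 0.078, edgeR adjusted p = 0.00638) and Rgs3, a brake on G protein signals, by 0.37 (SE 0.074, adjusted p = 0.0347). Pik3r5, the regulatory subunit of the PI3 kinase that G proteins activate, rose by 0.57 (SE 0.10, edgeR adjusted p = 0.017). Grk6, a kinase that desensitises receptors, rose by 0.38 (SE 0.079, edgeR adjusted p = 0.0405). With the block 5 were called higher and 6 lower, against 3.93% and 5.79% of all tested genes, among them Prex1 (0.34) and Gng2 (-0.34). Gnai2 was named for its role, after its values were seen.

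Transcription factors known from effector, tissue or resting programs of T cells were called in both directions. All 26 listed were tested, with a median log2 fold change of -0.057; 2 were called higher and 3 lower without the block, where 0.757% of all tested genes were called higher and 1.58% lower. With the block 6 were called higher and 8 lower, where the shares over all tested genes were 3.93% and 5.79%. In edgeR without the block 17 of 26 had an unadjusted p under 0.05, DESeq2 called 14 and limma-voom 5, against 12.1%, 4.47% and 2.2% of all tested genes. Batf and Gata3, known from effector and tissue Tregs, fell by 0.58 and 0.48 (SE 0.12 and 0.10, edgeR adjusted p = 0.0459 and 0.0437). Ikzf2, which encodes Helios, fell by 0.66 (SE 0.12, edgeR adjusted p = 0.024). Klf2 and Tcf7, known from resting and recirculating T cells, rose by 0.54 and 0.82 (SE 0.092 and 0.080, edgeR adjusted p = 0.0175 and 0.00151). Runx3 was at -0.47 (edgeR adjusted p = 0.059) and was called with the block (adjusted p = 0.0135).

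The authors' deposited table, whose test is not described there, lists Ccr8 at a log2 fold change of -1.72 (adjusted p = 1.02e-16). The authors' deposited table gives -1.96 (adjusted p = 0.00032) for Ccr10 and -0.90 (adjusted p = 0.000189) for Ccr4. In the authors' deposited table these 3 of 7 members pass an adjusted p of 0.05 as lower, beside 1.68% of its 24985 compared genes, and the adjusted p of the other 4 is at least 0.936.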

How the data were processed

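The deposited table gives, per the file headers, whole-number counts per gene for 6 libraries. A further 6 columns of per-library values were not used. The authors' comparison was deposited beside the counts, with each group's mean signal (scaled counts), the log2 fold change and its p-value, raw and adjusted. Per the submitters' processing notes, HISAT2 2.0.5, StringTie 1.3.3b, featureCounts 1.5.0-p3, DESeq2 1.16.1 and mm10 were used, with no role, strand setting or annotation named. Coordinates of all 7 members equal those of GENCODE release M21 (GRCm38). Per the labels, RNA was purified by column and libraries were made with an Illumina kit.

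Counts were tested with edgeR 4.0.16 in R 4.3.3 (quasi-likelihood, robust; filterByExpr; TMM; no covariate) over 14919 genes, two-sided, with Benjamini-Hochberg adjustment over all of them and calls under 0.05. A standard error is the log2 fold change divided by the square root of F. CPM are on TMM-scaled totals, given as mean ± SD; per kilobase, they are divided by the deposited gene length.

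Column numbers match no titled replicate number, so a column was assigned to its genotype alone. They were taken as pairs, because same-numbered libraries deviated from their group means together across genes (correlations of 0.271, 0.369 and 0.494 for numbers 2, 6 and 20). Libraries of unlike number were not compared in this way. A shift shared by both libraries numbered 20 can raise all of these values, so they do not show that numbers 2 and 6 are matched rightly. Calls made with the block depend on that matching. P-values weigh the difference between genotypes against the spread between these libraries, which are not stated to come from separate animals.

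Members and lists were chosen with earlier results of these data known. Named genes are the members, up to 6 genes per list called with or without the block (by smallest p without it), genes overlapping a member, and the 3 genes most like a called member. Gnai2, Ccl1, Ccr6, Ighm and the neighbours of members were named outside this rule, after their values were seen, and Foxp3 and the markers serve as checks. Alternatives were to keep every gene, to ask for 10 or more counts in all libraries, RLE and upper-quartile scaling, DESeq2 1.42.0, limma-voom (limma 3.58.1), the block, and leaving out libraries. A gene of the list of other receptors is not reported here. Scripts were tested on simulated data.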

Additional observations from a re-analysis of the deposited data

How the results depend on the processing

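Ccr8 kept its direction and its call in all 15 alternatives (-1.84 to -1.53), as did the sign of Ccr9 (0.042 to 0.27, never called). The members called went from 1 to 2 without a count filter, with the replicate block and without both libraries numbered 20, and to 3 with DESeq2 and with the block without both libraries numbered 20, an alternative chosen after seeing the data. It stayed at 1 in every fit that left out 1 library. Genes called went from 348 to 617 without a filter, 667 with DESeq2, 1450 with the replicate block and 900 with the block without number 20, and ran from 86 to 314 when 1 library was left out. Ccr10 passed the threshold at -1.97 without a filter, -1.96 with DESeq2, -1.93 with the replicate block, -1.78 without number 20 and -1.80 with the block besides; it ran from -2.28 to -1.47, uncalled, when 1 library was left out (adjusted p over all alternatives 8.77e-05 to 0.209). Ccr4 passed at -0.91 with DESeq2 and -0.55 with the block without number 20 (range of adjusted p 0.000311 to 0.398), and ran from -1.10 to -0.67 when 1 library was left out. Signs of uncalled members turned: Ccr2 to 0.073 without number 20 and 0.039 with the block besides, and Cxcr3 to 0.017 and 0.0043. When 1 library was left out, Ccr2 ran from -0.94 to -0.086, Cxcr3 from -0.62 to 0.015 and Cxcr6 from -0.18 to 0.23. Cxcr6 was at 0.34 without number 20 and 0.37 with the block besides, against 0.039 with all libraries and no block. The cause of these moves was not tested. The replicate block changed the call of no member other than Ccr10. Ccr10 had the fewest counts of the members, 16 in its lowest library; the part of depth in its call was not tested.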

Other observations

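Genes whose profile over the 6 libraries was most like that of Ccr8 were sought among 9365 other protein-coding genes with a mean of at least 5 CPM. Likeness was the root mean square difference between log2 CPM values centred on each gene's mean, so that 0 is an identical profile. The closest were Gcnt1, an O-glycan branching enzyme (0.20), Sh3tc1 (0.21) and Dab2ip, a Ras GTPase-activating protein (0.21). Their levels went from 30.8 ± 9.79 to 8.83 ± 2.18, from 8.94 ± 0.447 to 2.22 ± 0.433 and from 8.51 ± 1.07 to 3.30 ± 1.19 CPM from WT to Exon2KO (SD, n = 3 each). For Ccr10 the closest were Cdc42bpb, a kinase that binds Cdc42 (0.26), Gcnt1 (0.30) and Fut7, a fucosyltransferase (0.34), and Ccr8 ranked 4 of 9366 at 0.35. Cdc42bpb went from 12.5 ± 4.50 to 3.81 ± 0.582 CPM and Fut7 from 9.36 ± 3.71 to 3.24 ± 0.499 CPM. A gene that differs between the genotypes by a like amount is close by this measure, whatever its role. Between the members, the closest pair was Ccr4 and Ccr2, at 0.31 from each other, and the farthest was Ccr9 and Ccr10, at 1.17.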
